A study of Mus musculus with 8 samples.

Results

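H3K9ac, an acetylated lysine of histone H3 found at promoters in use, was followed at 10 genes of the NRF2 antioxidant response in bone marrow (BM) cells of *NUP98-HOXD13-tg* mice treated with vehicle or curcumin. The genes are the transcription factor gene *Nfe2l2*, its inhibitor *Keap1* and the 8 targets *Gclc*, *Gclm*, *Slc7a11*, *Gsr*, *Txnrd1*, *Srxn1*, *Hmox1* and *Nqo1*. They were chosen by their role in the pathway, with earlier results of these data known. They are 10 of the 21938 protein-coding genes of the annotation. With curcumin, the promoter peak of 9 of the 10 genes ranked higher among all promoters in *GFI1-36N* mice, against 60.1% of all genes with a promoter peak. It ranked higher for 1 of the 10 in *GFI1-KD* mice, against 37.1% of all genes, and for 0 in the pair labelled *GFI1-36S*, against 30.9%. In the latter pair *Hmox1* was nearly tied, at −0.03 points. *Hmox1*, the gene of the heme-degrading enzyme heme oxygenase 1, ranked between 28.5 and 37.8 in all 6 libraries.

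NRF2, the protein made from *Nfe2l2*, is held in the cytoplasm by KEAP1, which delivers it to a ubiquitin ligase for destruction. Oxidants and electrophiles modify cysteines of KEAP1, NRF2 then accumulates, enters the nucleus and pairs with a small MAF protein at antioxidant response elements (AREs) near its target genes. The targets make glutathione, regenerate thiols and degrade heme and quinones, and in blood cells the pathway is known for protection against oxidative damage. Curcumin is an electrophilic compound of turmeric that is known to activate NRF2 in cultured cells.

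All groups were C57BL/6 mice carrying the *NUP98-HOXD13* fusion transgene, a model of myelodysplastic syndrome that can progress to leukaemia. They differed in *Gfi1*, which encodes a transcriptional repressor: *GFI1-36S* carries the common form, *GFI1-36N* a variant form, and *GFI1-KD* expresses less of the protein. Curcumin was injected intraperitoneally every week at 20 mg/kg, and the vehicle group, labelled as having no curcumin, received DMSO. Frozen whole BM cells were used, although c-kit+ cells are named in 1 place of the study's text, and 1 library was analysed for each of the 6 groups, so the spread between mice is unknown and p-values are not given. An input and an IgG control, 2 further samples, were not used here. Age, sex, the number of mice behind a library and the promoter of the transgene are not given in the sources used here.

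The lists hold between 20354 and 49213 peaks, and the median summit holds between 24 and 36 recovered fragments. A whole number of fragments was recovered at 99.5% to 99.98% of the summits in a list. The library labelled *GFI1-36S* curcumin stands apart. It has the shortest list, 3 peaks on chromosome Y where the other 5 libraries have 0, and no peak at *Xist*, which has a peak in the other 5. All 10 T-cell markers had a promoter peak in it and 0 of 10 neutrophil and myeloid markers (including *Elane*, *Mpo* and *S100a8*), against 6 to 10 of these 10 in the other libraries. For *GFI1-36S*, list names and labels disagree on which library was treated. The labels were followed, and if the names were right every *GFI1-36S* direction given here would turn. By the list names, the *GFI1-36N* vehicle library came from heterozygous and the curcumin library from homozygous animals, a difference absent from the labels. In whole BM, fewer cells carrying a mark and less of the mark per cell cannot be told apart.

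For each gene, the peaks within 1 kb of any transcription start site (TSS) were taken as promoter peaks. Fold enrichment, a value of the authors' peak caller, is the number of fragments at the summit over the local background. It is not normalized between libraries. Each gene's strongest promoter peak was therefore ranked from 0 to 100 among those of its own library, with 0 where a promoter has no peak. Summit height is given as the recovered fragments over the genome background of the library, with an exact 95% Poisson interval that covers counting error only. Peaks upstream were those beyond the promoter window and within 10 kb of the most upstream TSS.

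Sequences are shown for the stretches in which a match to the ARE letters lay under a changing, a constant or no peak. Both strands were searched for the ARE core TGACNNNGC and for the related form TGANTCNGC. A site can match both. Matches are in capitals, every sequence reads 5′ to 3′ in the direction of the gene, and positions are of GRCm38.p6, the assembly also called mm10. The first 2 stretches are RefSeq promoters, the *Srxn1* promoter at chr2:152105274-152105573 on the plus strand, whose peak was absent from 2 libraries, and the inner *Txnrd1* promoter at chr10:82858956-82859255 on the plus strand, with a peak in all 6. The third lies upstream of *Nqo1* at chr8:107403577-107403696 on the minus strand, under a peak in 5 libraries.
Srxn1 promoter: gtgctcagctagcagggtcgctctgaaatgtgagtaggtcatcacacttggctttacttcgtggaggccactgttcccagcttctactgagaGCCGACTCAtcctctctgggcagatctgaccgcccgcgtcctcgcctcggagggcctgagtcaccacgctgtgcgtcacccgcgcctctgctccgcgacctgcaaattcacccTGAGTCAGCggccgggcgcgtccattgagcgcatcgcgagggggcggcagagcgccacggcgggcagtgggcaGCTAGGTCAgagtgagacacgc
Txnrd1 promoter: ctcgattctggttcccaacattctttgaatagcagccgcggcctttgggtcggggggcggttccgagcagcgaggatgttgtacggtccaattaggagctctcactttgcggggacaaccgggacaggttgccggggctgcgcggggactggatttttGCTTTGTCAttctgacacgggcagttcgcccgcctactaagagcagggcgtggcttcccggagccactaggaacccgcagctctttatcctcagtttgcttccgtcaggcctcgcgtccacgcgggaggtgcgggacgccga
Nqo1 upstream match: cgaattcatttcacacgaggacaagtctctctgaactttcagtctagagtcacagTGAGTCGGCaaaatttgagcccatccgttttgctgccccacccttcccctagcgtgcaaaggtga

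The other 3 stretches lie upstream of *Gclc* and *Hmox1*, both on the plus strand. The first, at chr9:77750649-77750848, is the match of the *Gclc* upstream site that was under a peak in all 6 libraries. The second, at chr8:75089545-75089844, is the TSS-side end of the *Hmox1* site found in 5 libraries. The third, at chr8:75083923-75084042, holds 3 matches within 120 bases and lay under a peak in 0 libraries.
Gclc upstream site: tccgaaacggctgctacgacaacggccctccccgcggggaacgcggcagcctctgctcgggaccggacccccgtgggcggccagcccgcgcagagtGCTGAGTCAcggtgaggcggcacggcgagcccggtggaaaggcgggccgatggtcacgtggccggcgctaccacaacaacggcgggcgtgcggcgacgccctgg
Hmox1 upstream site: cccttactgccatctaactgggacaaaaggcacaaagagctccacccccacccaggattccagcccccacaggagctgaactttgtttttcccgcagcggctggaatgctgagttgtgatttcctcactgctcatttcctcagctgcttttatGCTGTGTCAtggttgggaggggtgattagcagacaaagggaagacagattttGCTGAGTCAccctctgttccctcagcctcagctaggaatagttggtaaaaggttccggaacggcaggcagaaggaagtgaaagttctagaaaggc
Hmox1 distal matches: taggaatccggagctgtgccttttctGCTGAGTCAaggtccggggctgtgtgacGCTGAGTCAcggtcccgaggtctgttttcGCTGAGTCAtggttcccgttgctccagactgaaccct

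All 10 promoters had a peak in the *GFI1-36S* vehicle, *GFI1-36N* curcumin and both *GFI1-KD* libraries, 9 had one in *GFI1-36N* vehicle and 7 in *GFI1-36S* curcumin. Over all protein-coding genes, the share with a promoter peak ranged from 44.3% to 53.8%. By their median rank over the 6 libraries, the genes ran from *Nfe2l2* (93.0), *Keap1* (82.7), *Gsr* (77.3) and *Txnrd1* (71.4) through *Gclm* (48.6), *Gclc* (43.7) and *Hmox1* (30.6) to *Slc7a11* (17.1), *Nqo1* (14.2) and *Srxn1* (12.9). The order stayed the same for all 10 genes without the *GFI1-36S* curcumin library. Neighbours in it overlapped in their ranges over the libraries, with the exception of *Nfe2l2* (91.5 to 96.7), which stayed above the highest *Keap1* value of 89.4 and also above every other gene.

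**Figure D1:**
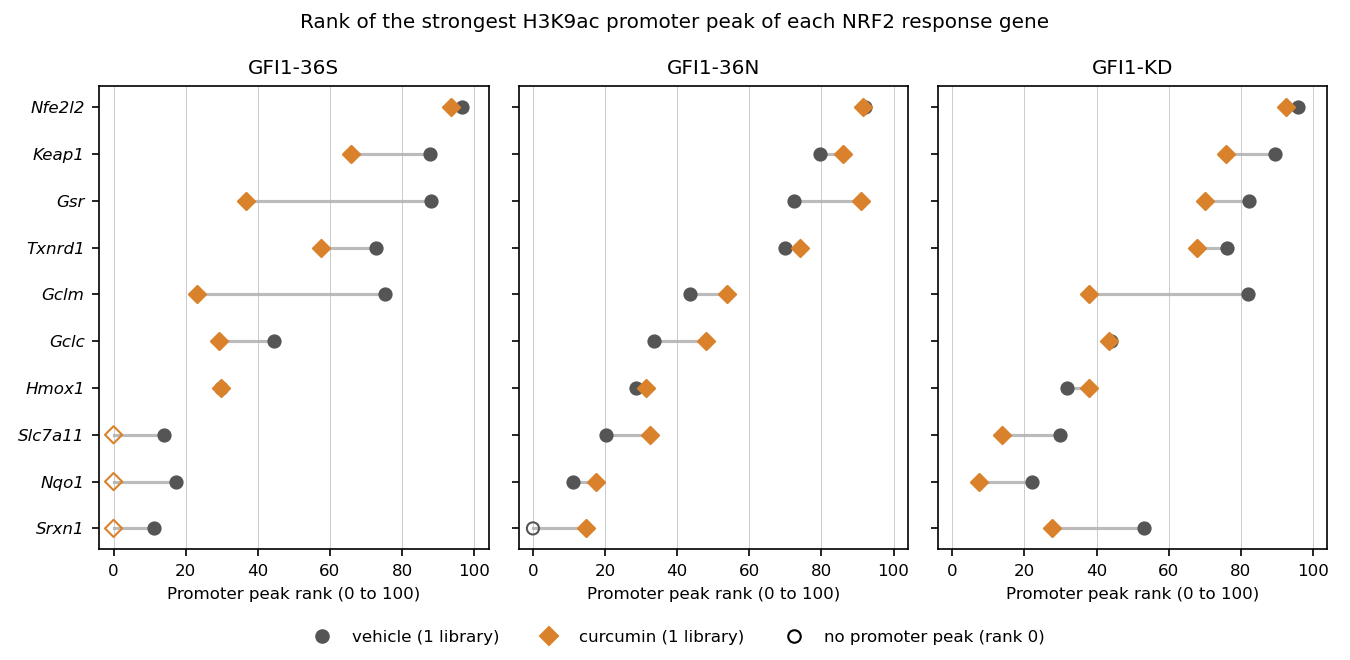
Rank of the strongest H3K9ac promoter peak of each gene (x axis, 0 to 100 within a library) in the 3 genotypes, with circles for the vehicle and diamonds for the curcumin library and open symbols at 0 for a promoter without a peak. The diamonds lie to the right of the circles for 9 of 10 genes in *GFI1-36N* and to the left for 9 of 10 in *GFI1-KD*. In *GFI1-36S* the curcumin rank is lower for all 10, though *Hmox1* is nearly tied (−0.03 points).

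The gene of the factor, *Nfe2l2* (chr2:75675513-75704641, minus strand), carried a strong peak in every library. It ranked 96.7 with vehicle and 93.6 with curcumin in *GFI1-36S*, 92.0 and 91.5 in *-36N*, and 95.7 and 92.4 in *-KD* mice. Summit height with curcumin was 0.55 times that with vehicle in *GFI1-36S* (95% interval of the ratio 0.44 to 0.68). It was 1.18 times in *-36N* (0.97 to 1.44) and 0.80 times in *-KD* mice (0.67 to 0.95). Each interval includes the median ratio over all genes, 0.58, 1.24 and 0.89 in the same order. The summit held between 128 and 336 fragments and the peak was 2474 to 6164 bp wide. The promoter of the noncoding gene *E030042O20Rik* shares this peak in all 6 libraries, so the peak cannot be given to *Nfe2l2* alone.

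*Keap1* (chr9:21229730-21239361, minus strand), the inhibitor, also had a peak in every library, with a fold enrichment from 15.1 to 35.7. Its rank went from 87.7 to 65.9 in *GFI1-36S*, from 79.6 to 85.9 in *-36N* and from 89.4 to 75.8 in *-KD* mice. Summit height with curcumin was 0.48 times that with vehicle in *GFI1-36S* (95% interval of the ratio 0.37 to 0.63). It was 1.31 times in *-36N* (1.06 to 1.62) and 0.75 times in *-KD* mice (0.61 to 0.92). All 3 intervals include the median ratio over all genes, 0.58, 1.24 and 0.89 in the same order. In *GFI1-KD* mice the rank of the inhibitor fell by 13.6 points, and that of the factor differed by −3.35. The height ratio of the factor there was 0.80 (0.67 to 0.95), and its interval overlaps that of the inhibitor. When promoters were ranked by peak width in place of fold enrichment, *Keap1* changed by 4.63 points in *GFI1-36S* and by 3.43 in *GFI1-KD* mice, the opposite direction.

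Glutathione is built from cysteine, which enters as cystine through the xCT transporter encoded by *Slc7a11*, and by glutamate-cysteine ligase, whose catalytic subunit is *Gclc* and whose modifier subunit is *Gclm*. *Gclm* (chr3:122245557-122270732, plus strand) had the largest changes of the 10 genes in *GFI1-36S* and *-KD* mice, though not in *-36N* mice, where 4 genes changed more. Its rank went from 75.3 to 23.3 in *GFI1-36S*, from 43.4 to 53.7 in *-36N* and from 81.9 to 37.8 in *-KD* mice. Its summit held 158 fragments with vehicle and 46 with curcumin in *GFI1-36S*, 110 and 127 in *-36N*, and 234 and 96 in *-KD* mice. The height ratio was 0.31 (0.22 to 0.43), 1.43 (1.10 to 1.86) and 0.51 (0.40 to 0.65) in the same order. The intervals of counting error leave out 1 in all 3 pairs. They leave out the median ratio over all genes in *GFI1-36S* (0.58) and *-KD* mice (0.89). In *-36N* mice the interval includes it (1.24). The peak was 657 bp wide in the *GFI1-36S* curcumin library and between 1318 and 2985 bp in the others.

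*Gclc* (chr9:77754535-77794485, plus strand), the other subunit gene, changed less than *Gclm* in *GFI1-KD* mice. Vehicle and curcumin ranks there were 43.97 and 43.35, with a height ratio of 0.91 (0.70 to 1.18). In *GFI1-36N* mice it went from 33.6 to 48.0, with a height ratio of 1.57 (1.19 to 2.08). In *GFI1-36S* it went from 44.4 to 29.2 (0.53, 0.38 to 0.74). All 3 intervals include the median ratio over all genes, 0.89 in *GFI1-KD*, 1.24 in *-36N* and 0.58 in *-36S* mice. The *Gclm* interval in *GFI1-KD* mice ends below that of *Gclc*. With a promoter window of 3 kb, the change of *Gclc* in *GFI1-KD* mice was −12.2 points, since the window then takes in the stronger upstream peak with vehicle (near edge at −2943 bp) and misses it with curcumin (−3003 bp). Ranked by width, *Gclc* changed by −1.65 in *GFI1-36N* mice.

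*Slc7a11* (chr3:49892526-50443614, minus strand) carried weak peaks, with 46 to 106 fragments at the summit. It ranked 13.9 with vehicle and had no peak with curcumin in *GFI1-36S*, and ranked 20.2 and 32.5 in *-36N* and 29.9 and 13.7 in *-KD* mice. The height ratio was 1.74 (1.25 to 2.44) in *GFI1-36N* and 0.54 (0.37 to 0.77) in *GFI1-KD* mice, on opposite sides of 1. The median ratios over all genes, 1.24 and 0.89, lie on opposite sides of 1 too. Both intervals leave out these medians, in *GFI1-36N* only just (lower end 1.250 against 1.244).

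Thiols are regenerated by glutathione reductase (*Gsr*), cytosolic thioredoxin reductase (*Txnrd1*) and sulfiredoxin (*Srxn1*), which repairs overoxidized peroxiredoxins. *Gsr* (chr8:33652523-33698163, plus strand) ranked 88.1 and 36.7 with vehicle and curcumin in *GFI1-36S*, 72.3 and 91.0 in *-36N* and 82.2 and 70.1 in *-KD* mice. With 9612 bp in the *GFI1-KD* vehicle library, its peak was the widest of any of the 10 promoters, and it measured 4250 bp with curcumin. In *GFI1-36S* the width was 6002 and 1293 bp, and in *-36N* mice 4381 and 6088 bp. Rank and width of *Gsr* moved the same way in each pair, but its rank by width changed by only 2.24 points in *GFI1-36N* and −2.12 in *-KD* mice.

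*Txnrd1* (chr10:82833951-82897712, plus strand) moved less. Its peak lay at the inner promoter, 25 kb inside the longest transcript, and is shared with the noncoding gene *Gm38560*. It ranked 72.9 and 57.6 in *GFI1-36S*, 69.9 and 74.1 in *-36N*, and 76.1 and 67.8 in *-KD* mice.

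*Srxn1* (chr2:152105516-152111376, plus strand) was the gene with the fewest peaks, present in 4 libraries. It had no peak in *GFI1-36N* vehicle and 50 fragments at a summit of 7.61-fold enrichment with curcumin. In *GFI1-36S* it had 37 fragments with vehicle and no peak with curcumin. In *GFI1-KD* mice it had 164 fragments with vehicle and 78 with curcumin, with ranks of 53.0 and 27.7 and a height ratio of 0.59 (0.44 to 0.78). The median ratio over all genes there was 0.89. The *GFI1-KD* vehicle value stands far above the other 5, of which the highest is the 27.7 of *GFI1-KD* curcumin. A promoter without a peak is not shown to lack the mark: the weakest peak in any list held between 13 and 17 fragments at its summit.

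*Hmox1* (chr8:75093621-75100589, plus strand) had a compact peak of 498 to 706 bp, with its summit 186 to 220 bp past the TSS, in each of the 6 libraries. It ranked 29.75 with vehicle and 29.72 with curcumin in *GFI1-36S*, 28.5 and 31.4 in *-36N*, and 31.7 and 37.8 in *-KD* mice. The height ratio was 0.65 (0.45 to 0.93), 1.33 (0.97 to 1.82) and 1.07 (0.81 to 1.42). Each interval includes the median ratio over all genes, 0.58, 1.24 and 0.89 in the same order. *Hmox1* was the only one of the 10 genes whose rank rose in *GFI1-KD* mice, by 6.09 points. The interval of its height ratio there includes 1.

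*Nqo1* (chr8:107388225-107403206, minus strand), the gene of a quinone reductase, had weak peaks upstream of its TSS. The summit lay at −520 to −899 bp from the TSS, whereas for the other 9 genes it lay downstream of the nearest TSS, apart from *Slc7a11* in *GFI1-KD* vehicle (−403 bp). The vehicle rank was 17.3 in *GFI1-36S*, where no peak was listed with curcumin, 11.1 and 17.6 in *-36N*, and 22.0 and 7.27 in *-KD* mice. In *GFI1-KD* mice the strongest peak narrowed from 2333 to 285 bp, with the region listed as 2 adjoining peaks with curcumin, and its summit held 81 and 31 fragments.

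**Figure D2:**
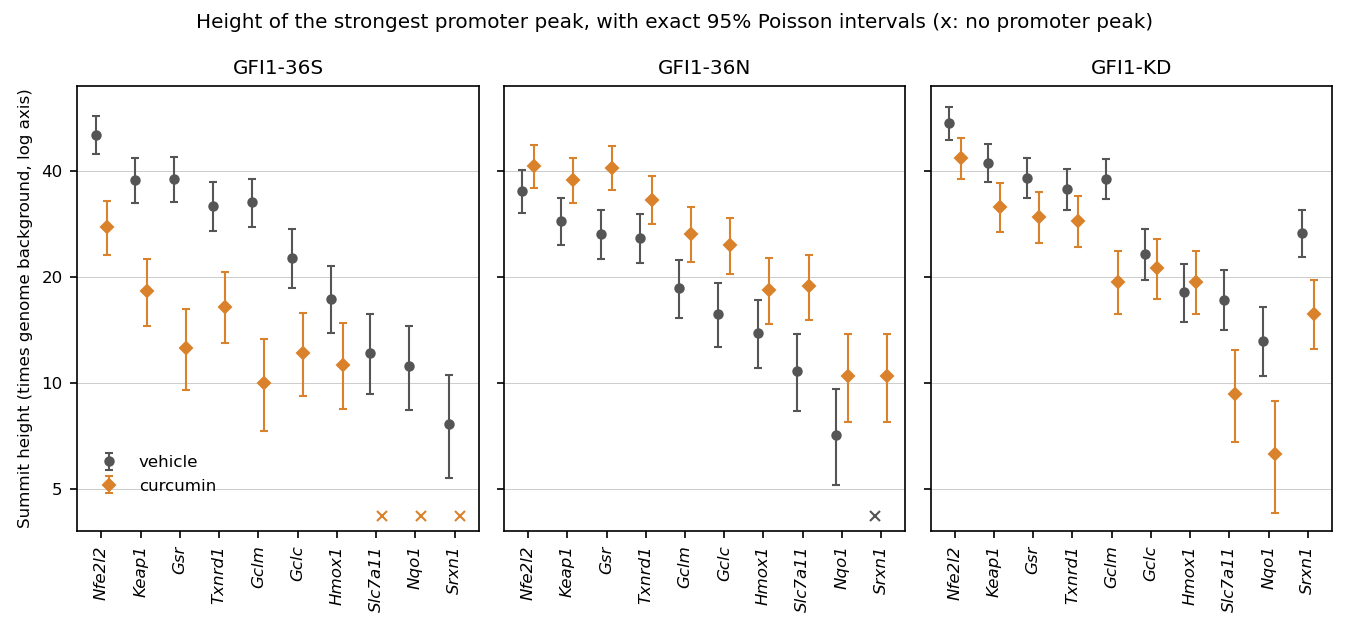
Summit height of the strongest promoter peak of each gene in multiples of the genome background (y axis, log scale), with exact 95% Poisson intervals, for the vehicle (circles) and curcumin (diamonds) library of each genotype; a cross marks a promoter without a peak. Heights with curcumin lie above vehicle for every gene with both peaks in *GFI1-36N*, below for all 7 in *GFI1-36S*, and below for 9 of 10 in *GFI1-KD*, where *Hmox1* is the exception.

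The vehicle and curcumin libraries were compared per genotype by the counts of genes that moved, read against the same counts over all genes. Each pair compares 1 library with 1 library, and by the list names treatment and zygosity cannot be told apart in the *GFI1-36N* pair. In *GFI1-36N* mice, the median change in rank of the 10 genes was 8.38 points, against 1.89 over all genes with a promoter peak. The rank was higher with curcumin at 9 of the 10, against 60.1% of all genes, and 5 rose by 10 points or more (*Gsr*, *Srxn1*, *Gclc*, *Slc7a11* and *Gclm*), against 19.3% of all genes. None fell by 10 or more, against 11.3%. *Srxn1* gained a peak, where 5.73% of all genes did, and 0 of the 10 lost one, against 1.84%. Summit height was higher at all 9 genes with peaks in both libraries, but the same held for 88.3% of all genes, and 2 of the 9 peaks were narrower, against 38.8%. The median height ratio was 1.43 for the 9 genes and 1.24 over all genes. Neutrophil and myeloid markers had a peak at 9 of 10 in both libraries (summed ranks 159 and 228, *Ltf* without), T-cell markers at 6 and 3 of 10 (31.2 and 22.9, *Cd3e* without in both), and erythroid markers at 6 and 4 of 8 (71.3 and 111). Their part in the rise was not tested.

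In *GFI1-KD* mice the median change was −12.9 points, against −2.34 over all genes. The interval of the median over the 10 genes, −25.3 to −0.63, includes the median over all genes. The rank was higher at 1 of the 10, against 37.1% of all genes, and 6 genes fell by 10 or more (*Gclm*, *Srxn1*, *Slc7a11*, *Nqo1*, *Keap1* and *Gsr*), against 20.6%. None rose by 10 or more, against 9.47%. No promoter lost or gained a peak, where 6.73% and 1.19% of all genes did. All 10 peaks were narrower with curcumin, against 88.2% of all genes, with a median width ratio of 0.67 against 0.82 over all genes. Summit height was higher at 1 of 10, against 22.8%. Of the markers of other cell types, 10 of 10 neutrophil and myeloid genes had a promoter peak with vehicle and 6 with curcumin (*S100a9*, *Ltf*, *Camp* and *Ngp* were without), and the ranks of the list summed to 312 and 136. Of 8 erythroid genes, 8 and 3 had a peak, with sums of 188 and 63.7, and *Alas2* and *Hba-a1* were without. Progenitor markers had a peak at 6 of 6 in both libraries, with sums of 75.0 and 155, and macrophage markers at 5 of 6 in both (75.1 and 94.6). The part of these cell types in the fall was not tested.

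In the *GFI1-36S* pair, as labelled, the median change was −15.2 points, against −6.61 over all genes. The interval of the median over the 10 genes, −51.4 to −3.14, includes the median over all genes. None of the 10 genes ranked higher, against 30.9% of all genes, and 8 fell by 10 or more, against 41.4%. None rose by 10 or more, against 15.0%. The exceptions to the fall by 10 or more were *Nfe2l2* and *Hmox1*, with changes of −3.14 and −0.03. The summit height of *Nfe2l2* was nevertheless 0.55 times that with vehicle (0.44 to 0.68), so its near-constant rank does not mean a constant height. At *Hmox1* the height ratio was 0.65 (0.45 to 0.93). *Slc7a11*, *Srxn1* and *Nqo1* lost the peak, where 16.2% of all genes did, and none gained one, against 1.99%. All 7 remaining peaks were narrower, which held for 94.6% of all genes. Summit height was higher at 0 of the 7, against 4.97%, with a median height ratio of 0.52 against 0.58 over all genes. The 10 neutrophil and myeloid markers went from 10 with a peak to 0 (summed ranks 198 and 0), the 6 progenitor markers from 5 to 1 (211 and 4.85), and the 10 T-cell markers from 4 to 10 (47.6 and 482). The pair therefore compares libraries of different marker content, and treatment and cell content cannot be told apart in it.

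**Figure D3:**
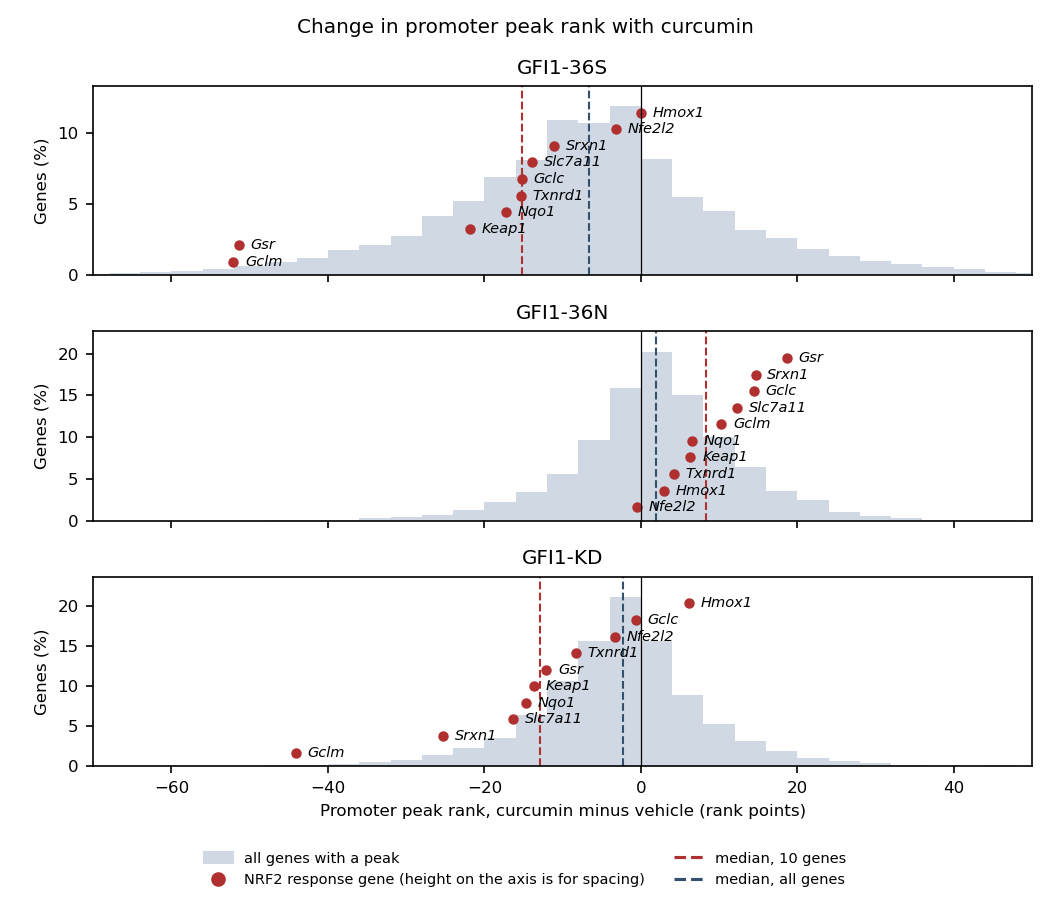
Change in promoter peak rank with curcumin (x axis, rank points) for all genes with a promoter peak (pale bars, percent of genes in bins of 4 points) and for the 10 genes (red points, spaced vertically for legibility), with dashed lines at the medians of the 10 genes and of all genes. The 10 genes lie to the right of the all-gene median in *GFI1-36N*, apart from *Nfe2l2*, and mostly to the left of it in the other 2 genotypes, with *Gclm* farthest left in both.

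The *GFI1-36N* and *GFI1-KD* pairs share no library. *Nfe2l2* ranked lower and *Hmox1* higher with curcumin in both. The rank rose in *GFI1-36N* and fell in *GFI1-KD* mice at 8 of the 10 genes, against 34.7% of all genes. At the same 8 genes, all but *Nfe2l2* and *Hmox1*, it also fell in the *GFI1-36S* pair, a pattern of 22.7% of all genes. It rose in *GFI1-36N* and fell in *GFI1-KD* by at least 10 points each way at 4 (*Gclm*, *Slc7a11*, *Gsr* and *Srxn1*), against 4.29%. The opposite pattern of at least 10 points each way was found at 0 of the 10 genes and 1.73% of all genes. When each list was limited to the same number of top peaks, the count of 4 went down to 2. The lists may share a control, which the sources used here do not name.

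Among the vehicle libraries, the rank in *GFI1-KD* mice was above that in *GFI1-36N* mice at all 10 genes, with a median difference of 9.85 points, against 59.3% and 1.73 points over all genes. The largest of these differences was at *Srxn1*, followed by *Gclm* (81.9 against 43.4). Vehicle *GFI1-36N* mice ranked above *GFI1-36S* at 1 of the 10 genes, *Slc7a11* (20.2 against 13.9), where 46.4% of all genes did. With curcumin, *GFI1-KD* ranked above *GFI1-36N* at 3 of the 10 genes, against 37.9% of all genes. The median rank of the 10 genes was thus lowest in *GFI1-36N* (38.5) and highest in *GFI1-KD* (64.6) among the vehicle libraries, while with curcumin it was 50.9 in *GFI1-36N* and 40.6 in *GFI1-KD*. These comparisons use the same libraries as the comparisons of treatment.

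Upstream of the promoters, 14 separate sites with a peak in at least 1 library were found at 7 of the 10 genes, and 4 of them were in 1 library. *Slc7a11*, *Txnrd1* and *Srxn1* had none. For *Txnrd1* the window lies before the most upstream TSS, so the stretch before the inner promoter that carries its peak was not searched. The vehicle and curcumin libraries held 8 and 2 upstream peaks in *GFI1-36S*, 9 and 10 in *-36N*, and 10 and 6 in *-KD* mice. No share of all genes is given for this window, so whether these counts are usual cannot be told. The lengths of the lists differ too, from 20354 peaks in *GFI1-36S* curcumin, with the fewest upstream peaks, to 49213 in *GFI1-36N* curcumin, and their part in these counts was not tested.

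The only site in all 6 libraries lay at −4695 to −2916 bp from the TSS of *Gclc*, at chr9:77749840-77751619, outside 1 kb of any annotated TSS. In *GFI1-36S* mice the vehicle and curcumin libraries had a fold enrichment of 15.8 and 4.27, against 13.8 and 17.0 in *-36N*, and 23.4 and 14.4 in *-KD* mice. In *GFI1-KD* vehicle this is above the 19.7 of the promoter peak of *Gclc* itself, and there the upstream site stood at percentile 88.0 of all peaks of the library by fold enrichment. In *GFI1-KD* mice its summit held 170 fragments with vehicle and 86 with curcumin, while the summit of the promoter held 143 and 105.

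*Hmox1* had 4 upstream sites. The nearest, at −4459 to −3777 bp, (chr8:75089162-75089844), had a peak in 5 libraries at a fold enrichment between 4.15 and 5.48, and none in *GFI1-36S* curcumin. Its summits held between 23 and 35 fragments, near the 24 to 36 of the median peak. The other 3 sites, between −8942 and −6881 bp, were present in 1 to 3 libraries, and the *GFI1-KD* vehicle library had all of them. *Keap1* had a site at −6040 to −4771 bp in 5 libraries, with a fold enrichment of at most 4.53. Its farthest site lay within 1 kb of TSSs of *S1pr5* and *Gm48303*, and is the only 1 of the 14 near another TSS.

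**Figure D4:**
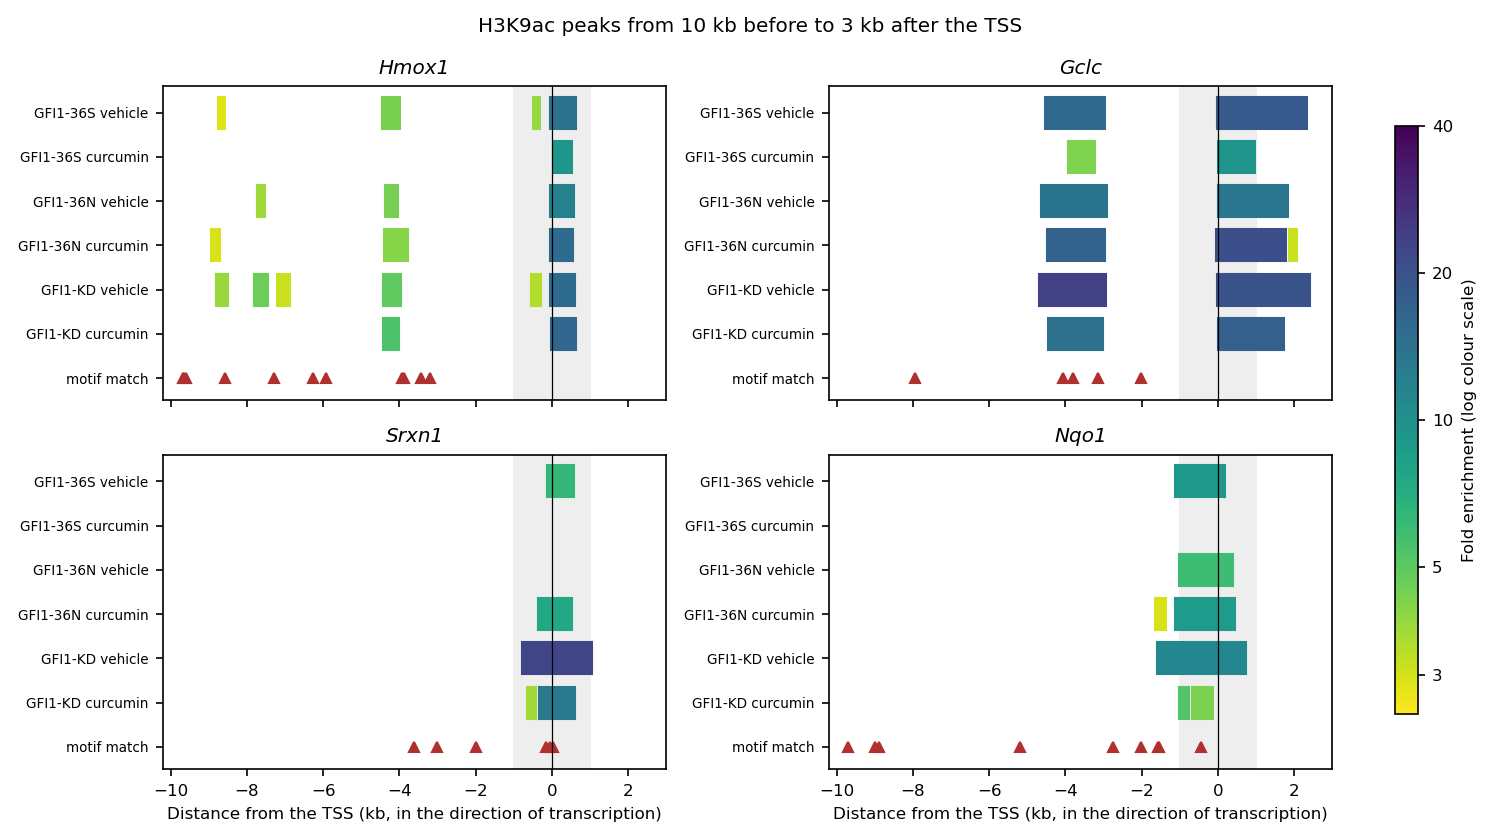
Peaks (boxes, coloured by fold enrichment on a log scale) from 10 kb before to 3 kb after the TSS of *Hmox1*, *Gclc*, *Srxn1* and *Nqo1*, by distance from the TSS in kb, with 1 row per library; triangles mark matches to either ARE form and the grey band is the promoter window. The *Gclc* site near −4 kb is in all 6 rows, the *Hmox1* promoter peak has nearly the same extent in each, and the *Hmox1* matches beyond −9 kb lie under no peak.

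The ARE letters were compared with the peaks. Of the 9 RefSeq promoters of 300 bases that belong to 7 of the 10 genes, 4 hold TGACNNNGC and 2 hold TGANTCNGC, against 12.4% and 3.22% of all 32851 such promoters. *Txnrd1* has 3 of the 9. Across the promoter and upstream windows, 61 positions matched either form, and 9 matched both. In promoter windows, 14 of 16 matches to TGACNNNGC and 4 of 4 to TGANTCNGC were under a peak in at least 1 library. Upstream, 24 of 33 and 13 of 17 were under no peak. All 10 promoters had a peak in some library, and no share over other positions is given. These counts therefore show where the peaks lie and are not a result about the letters. An upstream window of 9000 bases held TGACNNNGC in 9 of the 10 genes and in 91.7% of all genes, and TGANTCNGC in 9 of the 10 and in 54.0% of all genes.

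The match printed for *Gclc*, TGACTCAGC on the minus strand at −3786 bp, lay under the upstream peak in all 6 libraries. The same letters, also found at −2013 bp from *Gclc* under no peak, occur 4 times upstream of *Hmox1*, all on the minus strand. The 3 farthest, at −9668, −9640 and −9611 bp, were under no peak in any library, and the 1 at −3867 bp was under a peak in *GFI1-36N* curcumin alone, since the peaks of the other 4 libraries at this site end before it. In the *Srxn1* promoter, the match at −41 bp was covered in the 4 libraries with a peak, and the 1 at −154 bp in 3 of these. The *Nqo1* match, TGAGTCGGC at −431 bp, lay under a peak in 5 libraries. In non-promoter peaks of *GFI1-36N* curcumin, 12.0% of the 300-base windows around summits hold TGACNNNGC and 3.67% TGANTCNGC. A match is a string of letters and was not tested for binding.

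Beyond the 10 genes, 59 other genes of the pathway were described, grouped as partners and control of NRF2, glutathione, thioredoxin and peroxide, NADPH supply, heme and iron, and detoxification and export. A promoter peak was found in all 6 libraries for 40 of them, in some for 7 and in none of the lists used here for 12, among them the glutathione transferase genes *Gsta1* and *Gsta2*. The median change was −9.90 points in the *GFI1-36S* pair, 3.35 in *-36N* and −3.72 in *-KD* mice, the same sign as in the 10 genes and closer to the medians over all genes. By 10 points or more, 10 of the 47 with a peak rose in *GFI1-36N* mice and 2 fell, where 19.3% and 11.3% of all genes did. In *GFI1-KD* mice 0 of 45 rose and 8 fell, against 9.47% and 20.6%, so that the rises in *GFI1-36N* and the falls in *GFI1-KD* were near the shares over all genes. In the *GFI1-36S* pair 7 of 46 rose and 23 fell, against 15.0% and 41.4%.

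In *GFI1-36N* mice the largest rises were at *Tkt* (47.8 to 75.4), which encodes the pentose phosphate enzyme transketolase, *Mgst1* (37.4 to 60.7), a microsomal glutathione transferase, and *Fth1* (72.3 to 92.5), the ferritin heavy chain. The largest falls were at *Sesn2* (69.9 to 49.9), *Cat* (48.95 to 38.0), the gene of catalase, and *Blvra* (59.2 to 49.9), the gene of a biliverdin reductase. *Me1*, the cytosolic malic enzyme, gained a weak peak of rank 5.07 and *Ggt1* lost one of rank 1.32.

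In *GFI1-KD* mice the largest falls were at *Gpx1* (91.1 to 65.5), which encodes glutathione peroxidase 1, *Glrx* (59.5 to 41.5), the gene of glutaredoxin, and *Txn1* (73.6 to 59.3), the gene of thioredoxin. The largest rises stayed under 10 points, at *Gstm1* (23.2 to 33.1), *Blvra* (45.6 to 55.3) and *Taldo1* (34.4 to 43.7). No promoter of the 59 lost or gained a peak. Of the 10 partner and control genes with a peak, among them *Bach1*, *Cul3* and *Mafk*, 9 had a lower rank with curcumin, against 7495 of 11908 genes. None differed by 10 points or more, where 20.6% of all genes fell and 9.47% rose by as much. The median vehicle rank of these 10 was 83.6, near the top of the scale. The median height ratio of the 8 of them with recovered fragments in both libraries was 0.82, against 0.89 over all genes.

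In the *GFI1-36S* pair, as labelled, 6 of the 59 lost the peak: *Abcc1* (rank 47.6 with vehicle), an exporter of glutathione conjugates, *Mgst1* (29.3), *Osgin1* (13.3), *Me1* (9.44), *Gsta4* (8.84) and *Cbr3* (7.19). These are 6 of the 46 with a peak, near the 16.2% of all genes that lost one. None gained one. The largest falls were at *Sesn2* (80.2 to 30.9), *Abcc1* and *Taldo1* (64.1 to 24.3), and the largest rises at *Tkt* (48.0 to 80.9), *Slc48a1* (55.9 to 84.1), a heme transporter, and *Sod1* (48.9 to 70.5), the cytosolic superoxide dismutase. *Tkt* ranked 53.3 and 55.6 in *GFI1-KD* mice, and was thus higher with curcumin in all 3 pairs.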

How the data were processed

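H3K9ac ChIP-seq of whole BM cells was analysed in 6 libraries, 1 per genotype and treatment. The authors trimmed adapters with Trim Galore, mapped to mm10 with BWA-MEM, called peaks per library with MACS2 and removed ENCODE black list regions, per the labels and the study's methods. The deposited fold enrichment is a ratio to the local background. The −log10 p, −log10 q and integer score columns, also deposited, served to filter, to rank in alternatives and to recover fragments. The score was not used otherwise. The control and threshold of each list are not given in the sources used here, and none of these values is normalized between libraries.

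TSSs came from the GENCODE M21 basic set. A peak counted with an overlap of at least 1 bp. Fragments at a summit were recovered from fold enrichment and p, within 0.002 of −log10 p and 0.05 of a whole fragment. Ratios of heights have exact binomial 95% intervals, medians exact order-statistic intervals. Python 3.11.15, numpy 2.4.6, pandas 2.3.3, SciPy 1.17.1 and pysam 0.24.0 were used, and the steps were tested on simulated data. Promoter sequences are from RefSeq (GRCm38.p6), where 7 of the 10 genes matched by symbol. Other sequences are from the same assembly.

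A change of 10 rank points or more was counted as changed. Genes named beyond the 10 are those of the 59 with a peak in 1 library of a pair or among the 3 largest rises or falls, genes sharing a peak, and examples added after their values were seen (*Gsta1*, *Gsta2*, *Bach1*, *Cul3*, *Mafk*, *S1pr5*). The members and lists were chosen with earlier results of these data known. Other settings tried were peaks with −log10 q from 5 up, equal lists of 20354 peaks, 3 kb windows, the summit in the window, 1 TSS per gene, ranks by −log10 p or width, genes with both peaks, all biotypes, autosomes, other upstream windows and, for *GFI1-36S*, exchanged treatments. The comprehensive transcript set was added after seeing the data.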

Additional observations from a re-analysis of the deposited data

Results flagged for a closer look

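The change in promoter peak rank with curcumin went in opposite directions in 2 genotypes, by 10 points or more each way, at 5 of the 10 genes, against 16.7% of all genes with a promoter peak. With 1 library per group, these differences between genotypes were not tested. *Gclm* changed by 10.28 points in *GFI1-36N* and by −44.08 in *GFI1-KD* mice, *Slc7a11* by 12.28 and −16.28, *Gsr* by 18.66 and −12.1, and *Srxn1* by 14.67 and −25.29. *Gclc* changed by 14.43 points in *GFI1-36N* and by −15.19 in *GFI1-36S* mice, as labelled, where the treatments of the list names would turn the sign of the last value. In *GFI1-KD* mice, 4 fewer of the 10 neutrophil and myeloid markers and 5 fewer of the 8 erythroid markers had a promoter peak with curcumin. Over all genes, 6.73% lost one. Progenitor markers had a peak at 6 of 6 in both libraries, with summed ranks of 75.0 and 155. Macrophage markers had one at 5 of 6 in both, with sums of 75.1 and 94.6. The part of these cell types in the changes was not tested.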

How the results depend on the processing

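No paired analysis was possible because the labels give no replicate numbers and each group has 1 library. Apart from exchanging the *GFI1-36S* treatments, 10 of 323 recomputed changes of single genes had another sign, 3 of them of 10 points or more at first, and 12 lay on the other side of 10 points, 11 of them below it. With the *GFI1-36S* treatments exchanged, 0 of the 10 genes lost and 3 gained a peak, 10 ranked higher, the median change was 15.2 points and the median width ratio 2.35. *Keap1* then rose by 21.8, *Gclc* by 15.2, *Gclm* by 52.1, *Slc7a11* by 13.9, *Gsr* by 51.4, *Txnrd1* by 15.3, *Srxn1* by 11.1 and *Nqo1* by 17.3, and of the 59 other genes 0 lost and 6 gained a peak, with a median of 9.90. Ranked by width, *Keap1* changed by 4.63 in *GFI1-36S* and 3.43 in *GFI1-KD*, *Gclc* by −1.65 in *GFI1-36N*, *Txnrd1* by 5.03 in *GFI1-KD* and *Nfe2l2* by 2.02 in *GFI1-36S*, all opposite in sign. The other 5 turns of sign were *Hmox1* in *GFI1-36S* under 4 settings (up to 4.67) and *Gclc* in *GFI1-KD* with equal lists (0.32). The number of genes ranking higher in *GFI1-36S* was 1 with a −log10 q of at least 5, equal lists, the summit in the window or ranks by −log10 p, and 2 by width. In *GFI1-KD* it was 2 with equal lists and 3 by width. Genes up in *GFI1-36N* and down in *GFI1-KD* by 10 or more numbered 2 with equal lists, a count whose alternatives were chosen after seeing the data. The *GFI1-36S* width ratio was 0.752 over covered promoter bases. The causes were not tested.

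Of the 59 other genes, 1 gained a peak in *GFI1-36S* with equal lists (median −6.58). In *GFI1-36N*, 0 lost one with a −log10 q of at least 5, equal lists, 3 kb windows, 1 TSS or the comprehensive set, which was chosen after seeing the data, and 2 gained one with equal lists or 3 kb. In *GFI1-KD*, 1 lost one with a −log10 q of at least 5, 3 kb or 1 TSS. Upstream peaks numbered 4 and 1 in *GFI1-36S* vehicle and curcumin and 3 in *GFI1-KD* curcumin with a −log10 q of at least 5. With equal lists they numbered 1 in *GFI1-36S* vehicle, 5 and 3 in *GFI1-KD* vehicle and curcumin, then 4 and 2 in *GFI1-36N*. Within 5 kb they numbered 5 in *GFI1-36S* vehicle, 4 and 6 in *GFI1-36N* and 3 in *GFI1-KD* vehicle, and within 20 kb 14 in *GFI1-36S* vehicle, 16 and 11 in *GFI1-KD* and 16 and 17 in *GFI1-36N*. Counting every overlapping peak gave 19 and 5, 18 and 19, and 21 and 17. Depth limits what is called: a summit under about 13 to 17 fragments was in no list, so an absent peak is not an absent mark, and intervals cover counting error only.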
